A study of Homo sapiens with 4 samples.

Results

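The transcripts described here come from 48 genes that act in G2 and in mitosis: CDK1 with its cyclins, the mitotic kinases, the kinetochore, the spindle, the anaphase machinery and the cytokinesis ring. The genes were taken by symbol from a fixed list, and all 48 were found among 19734 gene rows. PolyA RNA was sequenced from BE(2)C:MYCN-ORF, a human neuroblastoma cell line that carries an added MYCN open reading frame, 48 hours after transfection. The cells were given an siRNA against MYCN (siMYCN) or a control siRNA (siCon), together with a let-7a miRNA mimic or a control mimic (miRCon). The 4 groups were siMYCN/let-7a, siMYCN/miRCon, siCon/let-7a and siCon/miRCon. Every group was 1 library of the same line with the same added reading frame, so no value has a replicate and every control cell also carries the added MYCN. Levels are given as TPM-like values, which are the deposited logs, taken as natural logs, turned back to a linear scale. Changes are log2 fold changes of the value plus 1, a scale that understates the change of low genes.

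Entry into mitosis is driven by CDK1 bound to cyclin A or cyclin B, which the CDC25 phosphatases switch on and which the aurora and polo kinases help to activate. The kinetochore then ties each chromosome to spindle microtubules, the spindle checkpoint holds back the anaphase-promoting complex (APC/C) until all chromosomes are attached, and the central spindle and the contractile ring divide the cell. Most of these genes are transcribed in a wave that peaks in G2 and M. Promoters of this kind are known to carry a cell cycle genes homology region (CHR), bound by the MuvB core of the DREAM and MYB-MuvB complexes, together with CCAAT boxes bound by NF-Y. MYCN, amplified in many neuroblastomas, binds the E-box CACGTG and drives growth and cell cycle entry. The let-7 miRNAs repress growth-promoting mRNAs through seed matches in 3' untranslated regions.

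RefSeq promoters on GRCh38.p14, which run from 250 bases before to 50 bases after a start, were at hand for 41 of the 48 genes, with 53 promoters between them. A CHR element, searched as TTTGAA or TTCGAA on both strands, lay in 34 of the 53 promoters (64.2%), against 11.7% of the 10403 promoters of tested genes and 16.4% of all 35116 promoters. A CCAAT box, searched as CCAAT on both strands, lay in 73.6% of the promoters of these genes, in 35.7% of the promoters of tested genes and in 34.6% of all promoters. Both motifs occurred together in 52.8% of the 53 promoters, against 4.90% in tested genes and 6.38% in all. The E-box CACGTG lay in 5 of the 53 (9.43%), close to the 9.99% of promoters of tested genes. Of the 48 CHR matches, 36 began between 70 bases before and 50 bases after the start, and 61 of the 82 CCAAT matches began between 130 and 20 bases before it. Matches were counted per promoter, so a site in overlapping promoters of a gene was counted more than once. The positions are not set against those in other promoters. A match describes these letters only and is not a bound site.

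The last 120 bases before the start are shown for 9 genes whose changes are described in what follows, with CHR and CCAAT matches of either strand in capitals. HMMR (chr5:163460512-163460631, plus strand), ANLN (chr7:36389742-36389861, plus strand) and CDC25B (chr20:3796190-3796309, plus strand, at the one of its starts that holds both motifs) were among the genes lowest with siMYCN. CENPF (chr1:214603075-214603194, plus strand), ASPM (chr1:197146670-197146789, minus strand) and CENPE (chr4:103198344-103198463, minus strand) were among the lowest with let-7a. PLK1 (chr16:23678769-23678888, plus strand), CCNB2 (chr15:59105026-59105145, plus strand) and MKI67 (chr10:128126424-128126543, minus strand) differed little with at least one of the treatments. In HMMR the run CCAATTGG reads as a CCAAT box on both strands, and in MKI67 the end of a CHR element overlaps a CCAAT box read on the other strand.
HMMR: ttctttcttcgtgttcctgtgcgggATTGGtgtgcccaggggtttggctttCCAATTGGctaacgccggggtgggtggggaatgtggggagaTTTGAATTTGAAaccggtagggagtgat
ANLN: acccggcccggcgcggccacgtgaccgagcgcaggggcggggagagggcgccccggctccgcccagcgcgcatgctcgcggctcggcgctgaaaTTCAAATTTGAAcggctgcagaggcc
CDC25B: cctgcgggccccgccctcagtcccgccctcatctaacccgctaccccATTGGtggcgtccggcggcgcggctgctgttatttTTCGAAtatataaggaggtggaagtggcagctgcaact
CENPF: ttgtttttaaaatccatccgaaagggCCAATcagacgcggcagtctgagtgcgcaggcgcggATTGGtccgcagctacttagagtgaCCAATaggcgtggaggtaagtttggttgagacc
ASPM: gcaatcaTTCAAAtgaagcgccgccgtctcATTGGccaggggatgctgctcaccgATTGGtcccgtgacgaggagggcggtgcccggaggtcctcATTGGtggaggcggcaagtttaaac
CENPE: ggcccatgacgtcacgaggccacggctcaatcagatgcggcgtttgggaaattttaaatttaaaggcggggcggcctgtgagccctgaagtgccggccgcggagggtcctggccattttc
PLK1: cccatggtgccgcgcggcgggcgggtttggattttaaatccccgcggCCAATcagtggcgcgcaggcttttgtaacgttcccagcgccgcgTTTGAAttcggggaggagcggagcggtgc
CCNB2: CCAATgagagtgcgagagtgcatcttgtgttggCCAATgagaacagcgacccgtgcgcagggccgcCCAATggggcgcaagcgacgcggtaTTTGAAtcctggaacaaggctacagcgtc
MKI67: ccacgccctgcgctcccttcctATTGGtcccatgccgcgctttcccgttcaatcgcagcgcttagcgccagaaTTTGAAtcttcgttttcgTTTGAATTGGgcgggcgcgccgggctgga
HMMR, ANLN and MKI67 each hold a pair of CHR matches close to the start. The CDC25B stretch holds 1 that begins at -38, and PLK1 and CCNB2 hold 1 each that begins at -29. The CENPE stretch holds neither motif. CHR matches were thus present in HMMR, ANLN and CDC25B and also in PLK1, CCNB2 and MKI67, while ANLN held no CCAAT match. These stretches are chosen examples, and a relation of motifs to changes was not tested.

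**Figure D1:**
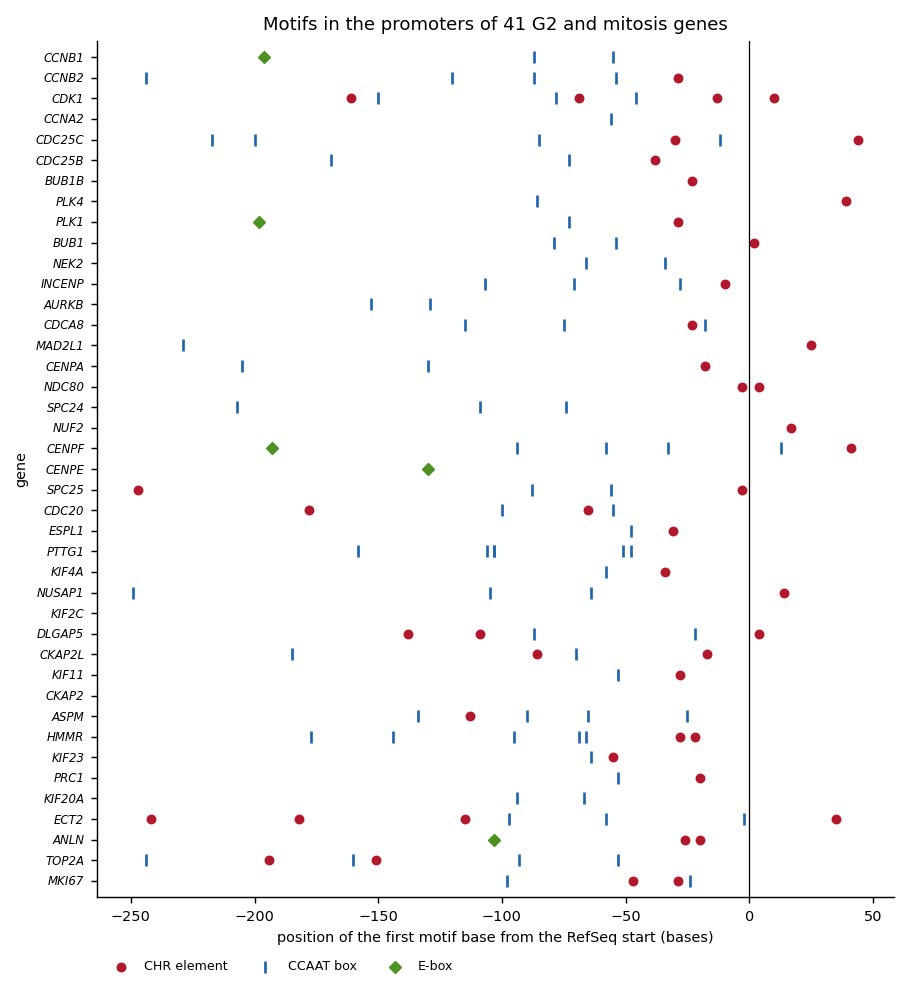
Positions of CHR elements (circles), CCAAT boxes (ticks) and E-boxes (diamonds) in the promoters of 41 G2 and mitosis genes, as bases from the RefSeq start (vertical line), with all promoters of a gene on one row. Of 48 CHR matches, 36 begin between 70 bases before the start and 50 after it. Of 82 CCAAT matches, 61 begin between 130 and 20 bases before it, and 5 promoters hold an E-box. Matches are counted per promoter, so a site in overlapping promoters is counted more than once.

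The mimic corresponds to hsa-let-7a-5p, whose RefSeq sequence (GRCh38.p14, chr9:94175962-94175983, plus strand) is shown with its seed, bases 2 to 8, in capitals, above the 5 seed matches found in the longest GENCODE 3' untranslated regions of the 48 genes (capitals mark the matched bases, 5' to 3').
hsa-let-7a-5p: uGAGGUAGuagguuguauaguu
AURKB: ctaactgttcccttatctgttttCTACCTC
CDC25B: ggggcctgcgccagtcctgCTACCTC
CDCA8: gacaacttccatgtcttgctcttCTACCTC
ESPL1: atgctagaagcctcataactgttCTACCTC
MAD2L1: tcctctttctagaccttgaggctTACCTCA
A match of at least 7 bases was present in 5 of the 48 genes (10.4%), against 18.8% of 8911 tested genes with an annotated 3' untranslated region. A match of 8 bases was present in 0 of the 48, against 4.32% of tested genes. The regions were also shorter, with a median of 753 bases, against 1493 bases in tested genes. Matches were in AURKB and CDCA8 of the chromosomal passenger complex, the phosphatase CDC25B, the protease separase (ESPL1) and the checkpoint protein MAD2L1. The 28 genes that were lower with let-7a in both pairs of libraries, described further on, include CDC25B and CDCA8 from these 5.

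All 48 genes passed the filter for testing, a mean of at least 5 over the 4 libraries, which 9324 genes passed. Their mean levels ran from 5.4 for CDC25C to 331.6 for TOP2A, with a median of 71.4; 44 had a mean of at least 20 and 15 a mean of at least 100. Linear values summed to between 855811 and 862049 per library over all deposited rows, spike-ins included, and the depth in reads is unknown. MYCN itself was at 1197 in siMYCN/let-7a and 1238 in siMYCN/miRCon, against 1433 in siCon/let-7a and 1449 in siCon/miRCon, a change of -0.24 ± 0.047 that did not pass the test (adjusted p = 0.0584, limma, n = 4 libraries), and transcripts of the added and the native gene were not told apart. LIN28B, an established let-7 target, was at 55.5 with let-7a and 119 with miRCon in siMYCN cells, and at 96.5 with let-7a and 157 with miRCon in siCon cells. Noradrenergic neuroblastoma markers were present in every library (PHOX2A at 565.6 or more and HAND2 at 231.7 or more). The epithelial markers CDH1, KRT5 and KRT14 and the blood marker HBB were at 0 in all 4 libraries. The 5 fibroblast markers summed to 155 and 198 in the siMYCN libraries with let-7a and miRCon, against 152 and 181 in the siCon libraries with let-7a and miRCon, and their part in the results was not tested.

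In the siMYCN libraries, in which MYCN itself was only slightly lower, a few of the 48 genes were lower and most differed little. The spindle protein HMMR, the kinase AURKA, the contractile ring protein ANLN and the phosphatase CDC25B each had a log2 change of -0.32 or lower with siMYCN under both mimics (the rule of size). These are 4 of 48 genes (8.33%), where 5.79% of all tested genes met the same rule downward. The same rule upward was met by 0 of the 48, and by 10.7% of tested genes. The test was limma with the siRNA and the mimic as additive terms over all 9324 genes, with Benjamini-Hochberg adjustment; its error is the departure from additivity among the 4 libraries, moderated over genes, so its p-values do not measure spread between cultures. It called 0 of the 48 higher (2.07% of all genes) and 0 of the 48 lower (1.36% of all genes) at an adjusted p under 0.05, and at an unadjusted p under 0.05 it had 0 higher (17.0% of all genes) and 5 lower (9.4% of all genes), the fifth being ECT2. In bulk RNA, fewer cells in G2 and M and less of these transcripts per cell cannot be told apart.

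HMMR, the hyaluronan-mediated motility receptor that organizes spindle poles, lies on chromosome 5 from 163460203 to 163491945 (plus strand, GRCh38). It was at 18.3 in siMYCN/let-7a and 22.2 in siMYCN/miRCon, against 32.7 in siCon/let-7a and 33.6 in siCon/miRCon. Both siMYCN libraries thus lay well below both siCon libraries, with changes of -44.1% with let-7a and -34.0% with miRCon. The change was -0.69 ± 0.128 (SE of the additive limma fit, n = 4 libraries), with an adjusted p of 0.0562. It was the lowest siMYCN change of the 48 genes, and 2.23% of all tested genes had a lower one. HMMR shares 113 of its 3936 exon bases with the antisense gene HMMR-AS1, and whether strand was used in counting is not given in the sources used here. Other genes described below share more with a gene on the opposite strand. Among them are FOXM1 (781 of 4899 exon bases), PLK1 (553 of 4760), CDC25C (293 of 3338) and CCNA2 (254 of 2798).

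AURKA, the kinase that matures centrosomes and activates PLK1, lies on chromosome 20 from 56369389 to 56392337 (minus strand). Its level was 16.3 in siMYCN/let-7a and 23.6 in siMYCN/miRCon, against 31.4 in siCon/let-7a and 31.2 in siCon/miRCon. The siCon libraries were alike and the siMYCN library with let-7a was the lowest by far. The siMYCN change was -0.65 ± 0.165 over both pairs (adjusted p = 0.0876, limma, n = 4 libraries), made up of -0.91 with let-7a and -0.39 with miRCon.

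ANLN, the anillin scaffold of the contractile ring, lies on chromosome 7 from 36389806 to 36453791 (plus strand). It was at 74.4 in siMYCN/let-7a and 83.7 in siMYCN/miRCon, against 99.97 in siCon/let-7a and 120.4 in siCon/miRCon. The 4 libraries stood in the order of treatment, with the doubly treated one lowest and the doubly untreated one highest. Its siMYCN change of -0.47 ± 0.082 had an adjusted p of 0.0502, the smallest among the 48 genes (limma, n = 4 libraries).

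CDC25B, the phosphatase that first activates CDK1 in G2, lies on chromosome 20 from 3786772 to 3806121 (plus strand). It was at 55.3 in siMYCN/let-7a and 66.2 in siMYCN/miRCon, against 80.3 in siCon/let-7a and 84.4 in siCon/miRCon, a change of -0.44 ± 0.095 (adjusted p = 0.0669, limma, n = 4 libraries). ECT2, the exchange factor that activates RhoA at the cleavage site, was at 40.1 in siMYCN/let-7a and 41.5 in siMYCN/miRCon, against 49.1 in siCon/let-7a and 53.7 in siCon/miRCon, a change of -0.32 ± 0.099 (adjusted p = 0.122, limma, n = 4 libraries). In both genes the siMYCN libraries lay below the siCon libraries with no overlap. The share of all tested genes that the siRNA separates in this way is not given here. When values were rescaled by median ratios between libraries, 4 of the 48 genes passed the limma test. Their adjusted p was 0.0231 for HMMR, 0.0212 for ANLN, 0.0313 for CDC25B and 0.0438 for AURKA. After this rescaling limma called 408 of all 9324 tested genes lower, against 127 as deposited. Over the alternatives tried, limma's adjusted p ran from 0.0231 to 0.372 for HMMR and from 0.0212 to 0.367 for ANLN. It ran from 0.0313 to 0.390 for CDC25B and from 0.0438 to 0.469 for AURKA.

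**Figure D2:**
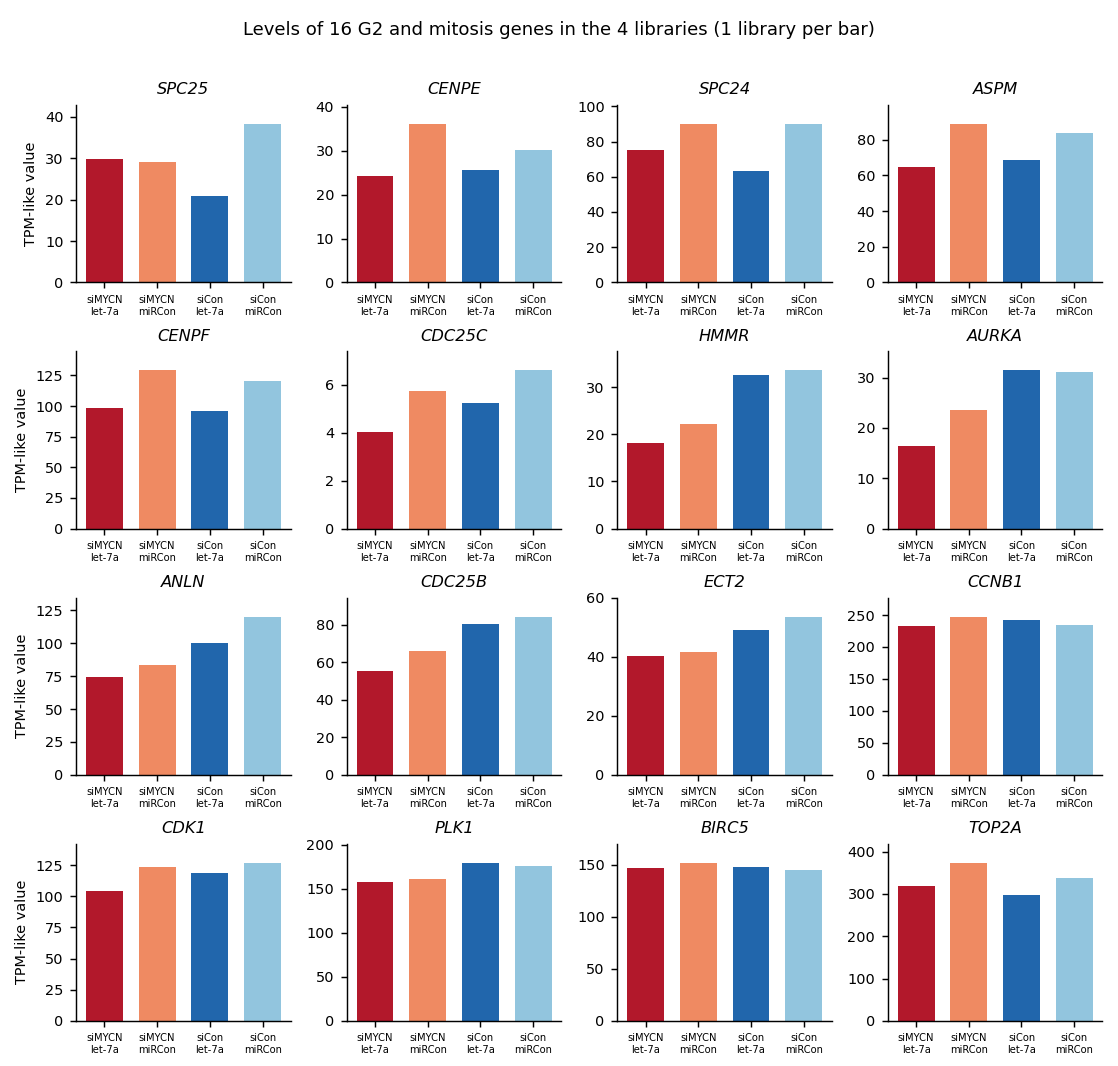
TPM-like values (linear axes from 0) of 16 G2 and mitosis genes, 1 bar per library, with the siMYCN libraries (red) left of the siCon libraries (blue) and let-7a (dark) left of miRCon (light). HMMR, AURKA, ANLN, CDC25B and ECT2 are lower in both siMYCN libraries, CENPE, ASPM and CENPF are lower in both let-7a libraries, and CCNB1 and BIRC5 are nearly level.

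Of CDK1, its cyclins and the CDC25 genes, 5 of 6 had a siMYCN change below 0, and the group median of -0.16 was the lowest of the 8 roles. CCNA2, cyclin A2, was at 126 in siMYCN/let-7a and 154 in siMYCN/miRCon, against 155 in siCon/let-7a and 166 in siCon/miRCon, a change of -0.20 ± 0.080. CDK1 was at 104 in siMYCN/let-7a and 124 in siMYCN/miRCon, against 119 in siCon/let-7a and 127 in siCon/miRCon, a change of -0.11 ± 0.081. For both, the doubly treated library was the lowest, and in CDK1 the other siMYCN library lay between the siCon libraries.

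CCNB1 and CCNB2, the cyclins that partner CDK1 through metaphase, differed less between libraries than CCNA2 did. CCNB1 was at 234 in siMYCN/let-7a and 248 in siMYCN/miRCon, against 242 in siCon/let-7a and 234 in siCon/miRCon, and CCNB2 ranged from 127 to 132 over the 4 libraries. Neither cyclin B gene separated the siRNA groups, and the sign of the CCNB1 change (0.02) turned under rescaling. CDC25C, the other CDK1 phosphatase and the lowest of the 48 genes, was at 4.03 in siMYCN/let-7a and 5.73 in siMYCN/miRCon, against 5.24 in siCon/let-7a and 6.60 in siCon/miRCon.

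Among the other mitotic kinases, PLK1, the polo kinase of centrosomes and kinetochores, was at 158 in siMYCN/let-7a and 161 in siMYCN/miRCon, against 180 in siCon/let-7a and 176 in siCon/miRCon, a change of -0.15 ± 0.069. BUB1, a checkpoint kinase, was at 21.5 in siMYCN/let-7a and 23.5 in siMYCN/miRCon, against 24.1 in siCon/let-7a and 27.6 in siCon/miRCon. Both genes were lower in each siMYCN library than in either siCon library, by margins that the test did not call. BUB1B, the checkpoint pseudokinase BubR1, was higher instead, at 76.7 in siMYCN/let-7a and 80.9 in siMYCN/miRCon, against 71.4 in siCon/let-7a and 75.1 in siCon/miRCon, a change of 0.10 ± 0.084 that was not called. NEK2, TTK and PLK4 had siMYCN changes of -0.09, -0.05 and -0.02.

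The 8 kinetochore genes among the 48 lay mostly above 0 with siMYCN. Of these 8, 6 had a change above 0, and their median was 0.06, near the median of 0.06 over all tested genes. Under rescaling 4 of 8 were above 0. A further list of 25 kinetochore and centromere genes outside the 48 went the other way, with a median of -0.11 and 17 below 0. MAD2L1, the checkpoint protein Mad2, had the highest siMYCN change of the 48 genes, at 29.7 in siMYCN/let-7a and 31.0 in siMYCN/miRCon, against 27.6 in siCon/let-7a and 27.4 in siCon/miRCon, a change of 0.14 ± 0.115. SPC24, a subunit of the NDC80 complex, was next at 0.13 ± 0.099, with 75.4 in siMYCN/let-7a and 89.9 in siMYCN/miRCon, against 63.1 in siCon/let-7a and 89.7 in siCon/miRCon. That difference lay in the let-7a pair alone, since the miRCon libraries were alike. TOP2A, the topoisomerase that untangles sister chromatids, was at 319 in siMYCN/let-7a and 374 in siMYCN/miRCon, against 297 in siCon/let-7a and 337 in siCon/miRCon, a change of 0.13 ± 0.060.

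The passenger complex, which corrects faulty attachments, had 2 of 4 genes above 0 over both pairs, and its median of 0.01 changed sign after rescaling. With miRCon all 4 had a siMYCN change above 0 (0.03 to 0.39), and with let-7a only INCENP did. INCENP, its scaffold, was at 49.8 in siMYCN/let-7a and 47.8 in siMYCN/miRCon, against 47.2 in siCon/let-7a and 43.7 in siCon/miRCon. BIRC5, survivin, was at 147 in siMYCN/let-7a and 152 in siMYCN/miRCon, against 148 in siCon/let-7a and 145 in siCon/miRCon, and did not separate the siRNA groups. AURKB, its kinase, was at 16.3 in siMYCN/let-7a and 19.6 in siMYCN/miRCon, against 22.4 in siCon/let-7a and 14.8 in siCon/miRCon. Both siMYCN values of AURKB lay between the siCon values, and the siMYCN change was -0.44 with let-7a and 0.39 with miRCon.

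For the APC/C and its substrates, CDC20, the coactivator that the checkpoint holds back, was at 81.3 in siMYCN/let-7a and 90.9 in siMYCN/miRCon, against 93.2 in siCon/let-7a and 93.5 in siCon/miRCon. The 3 siMYCN changes below 0 in this group of 4 were ESPL1 (-0.14), CDC20 (-0.12) and PTTG1, securin (-0.11), while UBE2C, the E2 enzyme of the APC/C, had 0.07. Of 10 spindle genes 8 were below 0, with a median of -0.06, and apart from HMMR their siMYCN changes ran from -0.17 for TPX2, which activates AURKA on the spindle, to 0.03 for KIF4A, a chromokinesin. Of 6 central spindle and cytokinesis genes 5 were below 0, with KIF23, KIF20A and PRC1 at -0.11, -0.10 and -0.05 besides ANLN and ECT2, and RACGAP1 at 0.02. FOXM1, the factor that activates many of these genes, was at 103 in siMYCN/let-7a and 119 in siMYCN/miRCon, against 108 in siCon/let-7a and 106 in siCon/miRCon, and did not separate the siRNA groups.

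Over all 48 genes, the median siMYCN change was -0.042, against 0.056 over all tested genes. By pair, the median was -0.080 with let-7a and -0.010 with miRCon, against 0.048 with let-7a and 0.070 with miRCon over all genes. Below 0 in both pairs were 23 of the 48 (47.9%), against 27.4% of tested genes, and above 0 in both were 12 of the 48, against 43.2%. Rescaling brought the all-gene median to -0.003 and the median of the 48 to -0.10, with 40 instead of 31 of the 48 below 0; 9 genes changed sign, all with a change of at most 0.058 in size. The split of all genes also depended on that choice: limma called 193 higher and 127 lower as deposited, and 343 higher and 408 lower after rescaling, and the rule of size counted 1001 higher and 540 lower as deposited, and 753 higher and 723 lower after rescaling. The share of mitochondrial transcripts moved with the siRNA, at 29.3% in siMYCN/let-7a and 28.4% in siMYCN/miRCon, against 32.1% in siCon/let-7a and 31.7% in siCon/miRCon, and its part in the changes was not tested.

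The let-7a mimic went with slightly lower levels across much of the group, and 38 of the 48 had a change below 0 (33 after rescaling by median ratios), where 57.7% of all tested genes did (49.5% after rescaling). CENPF, CENPE, ASPM, SPC24, NEK2, PTTG1, MKI67 and TOP2A were each lower with let-7a under both siRNAs, with changes from -11.7% to -32.4%. Lower in both pairs were 28 of the 48 genes (58.3%), against 33.5% of all tested genes. Higher in both were 6 of the 48, namely INCENP, KIF23, KIF4A, PRC1, RACGAP1 and UBE2C, against 22.6% of tested genes. Among genes with a mean of at least 20, where the log scale is least affected by the added 1, the shares lower in both pairs were 27 of 44 (61.4%) and 35.9%.

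No let-7a change was called in any gene. Limma called 0 higher and 0 lower of the 48, as of all 9324 genes (0.0% each way), with adjusted p of 0.663 or more. At an unadjusted p under 0.05, 0 of the 48 were higher (2.77% of all genes) and 9 were lower (4.71% of all genes): ANLN, ASPM, CENPE, CENPF, MKI67, NEK2, PTTG1, SPC24 and TOP2A. The rule of size, a log2 change of 0.32 or more in both pairs, was met by CENPF alone downward (2.03% of all genes) and by 0 of the 48 upward (1.47% of all genes), and CENPF no longer met it after rescaling. The let-7a results are therefore given as values.

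CENPF, a large outer kinetochore protein that peaks in G2 and M, lies on chromosome 1 from 214603195 to 214664588 (plus strand). It was at 98.8 with let-7a and 129 with miRCon in siMYCN cells, and at 95.9 with let-7a and 120.4 with miRCon in siCon cells. Both let-7a libraries lay below both miRCon libraries, and the siRNA made little difference. Its let-7a change was -0.35 ± 0.077 (SE of the additive limma fit, adjusted p = 0.663, n = 4 libraries), with -0.38 in siMYCN cells and -0.32 in siCon cells.

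CENPE, the kinesin that moves chromosomes to the metaphase plate, lies on chromosome 4 from 103105806 to 103198409 (minus strand). It was at 24.4 with let-7a and 36.0 with miRCon in siMYCN cells, and at 25.7 with let-7a and 30.2 with miRCon in siCon cells. SPC24 was at 75.4 with let-7a and 89.9 with miRCon in siMYCN cells, and at 63.1 with let-7a and 89.7 with miRCon in siCon cells. For CENPE the larger gap was in siMYCN cells (-0.55, against -0.23 in siCon cells), and for SPC24 it was in siCon cells (-0.25 in siMYCN cells, against -0.50 in siCon cells); neither difference has a test. SPC25, which binds SPC24 to join the NDC80 complex to the inner kinetochore, was at 29.8 with let-7a and 29.1 with miRCon in siMYCN cells, and at 20.8 with let-7a and 38.3 with miRCon in siCon cells. Its let-7a change of -0.41 ± 0.222, the lowest of the 48 genes, came from the siCon pair alone.

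The rest of the kinetochore group showed smaller or no differences. NUF2 had a let-7a change of -0.18, and NDC80, its partner in the complex, 0.04. CENPA, the histone variant that marks the centromere, had 0.005 and ranged from 49.8 to 52.2, and MAD2L1 had -0.02. Over the 8 kinetochore genes the median was -0.26, and 6 were below 0 as deposited and 5 after rescaling. In the further list of 25 kinetochore and centromere genes the median was -0.07 (-0.03 after rescaling), with 18 below 0 (16 after rescaling). The 4 subunits of the NDC80 complex, which work as one particle, thus had let-7a changes between -0.41 and 0.04.

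ASPM, a spindle pole protein of dividing neural precursors, lies on chromosome 1 from 197084128 to 197146694 (minus strand). It was at 64.8 with let-7a and 88.7 with miRCon in siMYCN cells, and at 68.6 with let-7a and 83.99 with miRCon in siCon cells, a change of -0.37 ± 0.091. NEK2, which splits the centrosomes, was at 48.6 with let-7a and 62.2 with miRCon in siMYCN cells, and at 52.4 with let-7a and 65.4 with miRCon in siCon cells, a change of -0.33 ± 0.092. PTTG1 was at 89.3 with let-7a and 110.1 with miRCon in siMYCN cells, and at 98.4 with let-7a and 117 with miRCon in siCon cells, a change of -0.27 ± 0.078. In these 3 genes, as in CENPF, each let-7a library lay below each miRCon library, and both pairs had changes of -0.25 or lower. The share of all tested genes that the mimic separates in this way is not given here.

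MKI67, the coat of mitotic chromosomes and the usual proliferation marker, was at 137 with let-7a and 159.7 with miRCon in siMYCN cells, and at 130.3 with let-7a and 157 with miRCon in siCon cells, a change of -0.24 ± 0.071. TOP2A was at 319 with let-7a and 374 with miRCon in siMYCN cells, and at 297 with let-7a and 337 with miRCon in siCon cells, a change of -0.20 ± 0.060. For both genes each let-7a library lay below each miRCon library. CDC25C, at 4.03 with let-7a and 5.73 with miRCon in siMYCN cells and at 5.24 with let-7a and 6.60 with miRCon in siCon cells, had -0.35 ± 0.217, a change whose error is wide at such low levels.

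**Figure D3:**
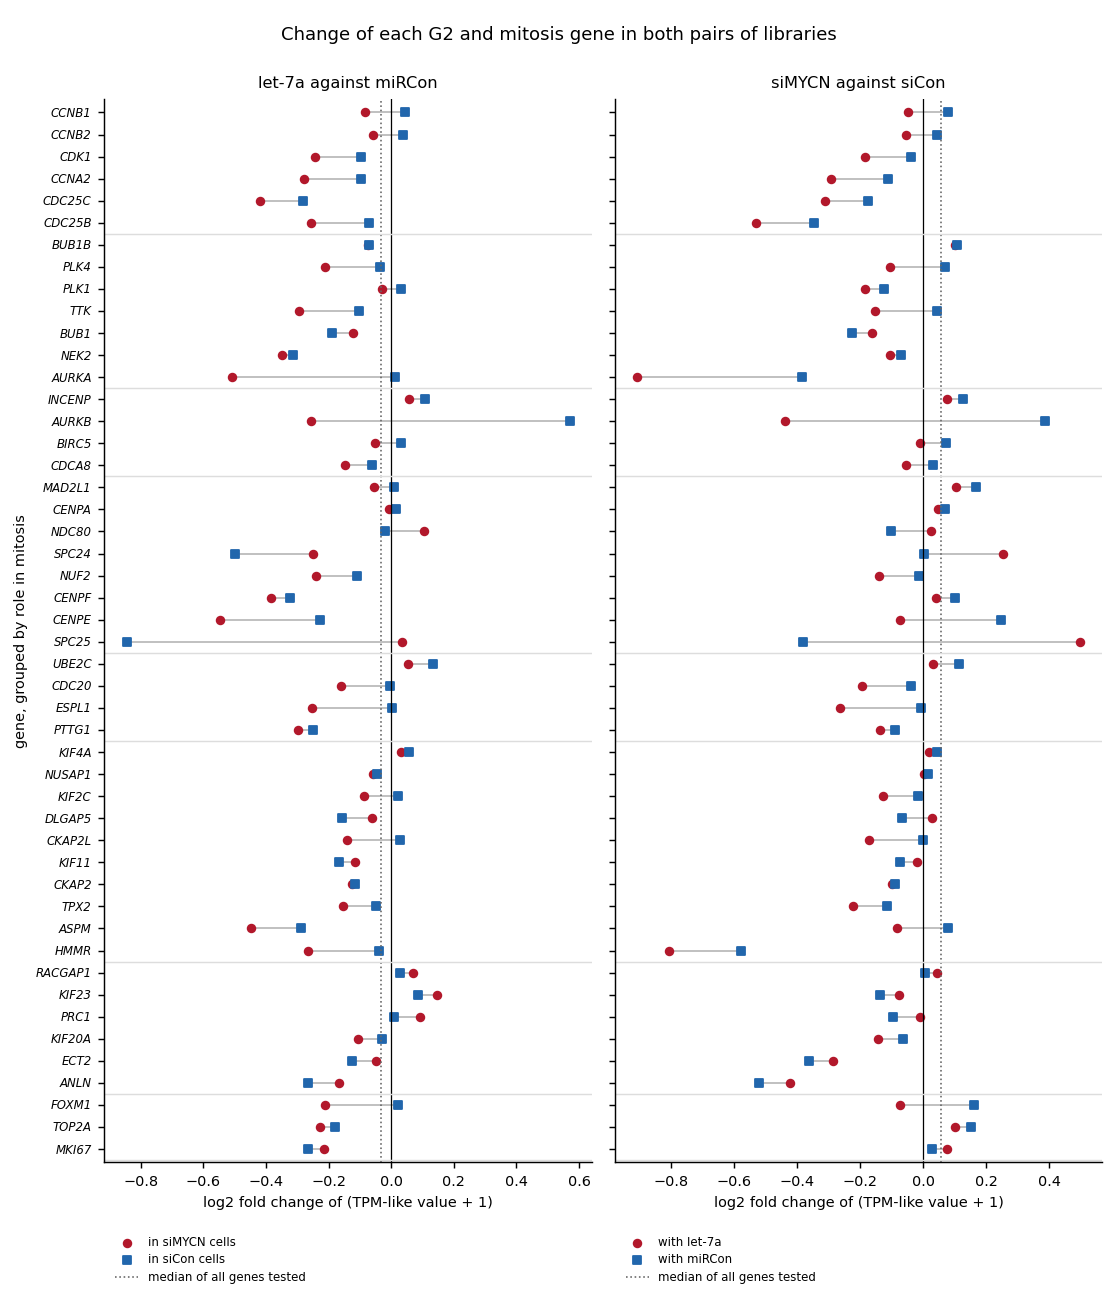
Log2 fold changes of the 48 genes, grouped by role, with let-7a against miRCon on the left (circles in siMYCN cells, squares in siCon cells) and siMYCN against siCon on the right (circles with let-7a, squares with miRCon); dotted lines are medians of all tested genes. Most let-7a points lie left of 0, HMMR, AURKA, ANLN and CDC25B stand out on the right, and AURKB and SPC25 have pairs on opposite sides or far apart.

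Among the cyclin and kinase genes the 2 pairs were alike for some and apart for others, with no test of the difference. The let-7a changes of CDK1 were -0.24 in siMYCN cells and -0.10 in siCon cells, those of CCNA2 were -0.28 in siMYCN cells and -0.10 in siCon cells, and those of CDC25B were -0.26 in siMYCN cells and -0.07 in siCon cells. AURKA had -0.51 in siMYCN cells and 0.01 in siCon cells, and CCNB1, CCNB2 and PLK1 lay between -0.08 and 0.04 in every pair. NEK2 had -0.35 in siMYCN cells and -0.31 in siCon cells, and BUB1 had -0.12 in siMYCN cells and -0.19 in siCon cells. Of the 4 genes with the letters of a 7-base match to nucleotides 2 to 8 of let-7a, CDC25B had -0.16 over both pairs, ESPL1 -0.13, CDCA8 -0.10 and AURKB 0.16.

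Besides the 6 genes higher in both pairs, AURKB, NDC80 (0.04), CENPA (0.005) and PLK1 (0.0002) lay above 0 over both pairs. AURKB had the highest let-7a change, 0.16 ± 0.224, from 0.57 in siCon cells and -0.26 in siMYCN cells. KIF23, the kinesin of the centralspindlin complex, was at 18.04 with let-7a and 16.2 with miRCon in siMYCN cells, and at 19.1 with let-7a and 17.9 with miRCon in siCon cells, a change of 0.12 ± 0.136. Its partner RACGAP1 was at 84.3 with let-7a and 80.4 with miRCon in siMYCN cells, and at 81.7 with let-7a and 80.1 with miRCon in siCon cells. Both subunits of centralspindlin were thus marginally higher with let-7a in each pair, within their errors. UBE2C was at 197 with let-7a and 190.0 with miRCon in siMYCN cells, and at 193 with let-7a and 176 with miRCon in siCon cells, and PRC1, the bundler of the central spindle, ranged from 157 to 169. PRC1 shares 3181 of its 5525 exon bases with another annotated gene on its strand and NUSAP1 shares 1787 of 2875, so that reads of these 2 genes may have been divided.

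Over all 48 genes, the median let-7a change was -0.11, against -0.031 over all tested genes. It was -0.14 in siMYCN cells and -0.047 in siCon cells, where all tested genes had -0.039 in siMYCN cells and -0.018 in siCon cells. Below 0 over both pairs were 38 of the 48, and 33 after rescaling, when 5 genes with changes of at most 0.032 in size changed sign. By role, the medians were -0.26 for the kinetochore, -0.20 for FOXM1, TOP2A and MKI67, -0.17 for CDK1, the cyclins and CDC25, -0.16 for the kinases, -0.11 for the spindle, -0.10 for the APC/C group, -0.01 for cytokinesis (0.02 after rescaling) and 0.04 for the passenger complex. Across the 48 genes, the let-7a change in siMYCN cells and in siCon cells, which share no library, correlated with r = 0.262 (Pearson) and rho = 0.53 (Spearman), against 0.115 and 0.131 over all tested genes. Without AURKB and SPC25, left out after their values were seen, r was 0.613 and rho 0.668 over 46 genes. These 2 genes had the largest differences between pairs, so leaving them out raises the correlation by construction. No like removal was made over all tested genes. For siMYCN the same measures were 0.475 and 0.527 over the 48, 0.79 and 0.702 without those 2, and 0.534 and 0.532 over all genes. These correlations are across genes, which are not independent replicates and share each library's composition.

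With both treatments the levels were lowest. The 48 genes summed to 3745.8 in siMYCN/let-7a, 4135.7 in siMYCN/miRCon, 3957.4 in siCon/let-7a and 4193.6 in siCon/miRCon, so that the doubly treated library differed by -10.7% from the doubly untreated one. Against siCon/miRCon, the siMYCN/let-7a library was lower in 37 of the 48 genes, with a median change of -0.18, where 4363 of 9324 tested genes were lower and their median was 0.028. This is a difference between 2 libraries and has no test. The lowest were AURKA (-0.90), HMMR (-0.84), ANLN (-0.69), CDC25B (-0.60), CDC25C (-0.59), NEK2 (-0.42) and ECT2 (-0.41), and the highest were INCENP (0.18), UBE2C (0.16) and AURKB (0.13).

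The let-7a change was lower in siMYCN cells than in siCon cells for 36 of the 48 genes, with a median difference of -0.072, against 4887 of 9324 tested genes and a median of -0.015. The difference was -0.83 for AURKB, -0.52 for AURKA, -0.32 for CENPE, -0.25 for ESPL1 and -0.23 for FOXM1 and HMMR, and it was 0.88 for SPC25 and 0.25 for SPC24. With 1 library a group these differences have no test. The difference is the same number whether it is read as the let-7a change across siRNAs or as the siMYCN change across mimics.

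**Figure D4:**
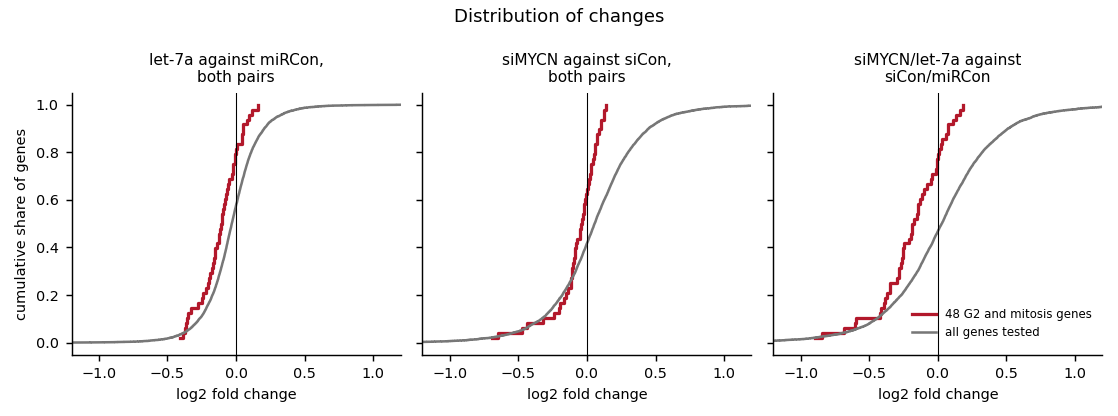
Cumulative shares of the log2 fold changes of the 48 G2 and mitosis genes (red) and of all 9324 tested genes (grey), for let-7a against miRCon, siMYCN against siCon, and siMYCN/let-7a against siCon/miRCon. The red curves lie left of the grey ones in their upper parts, with medians of -0.11 against -0.031, -0.042 against 0.056 and -0.18 against 0.028.

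The changes were also set beside the promoter letters. The 31 genes with a CHR match had a median let-7a change of -0.11 and a median siMYCN change of -0.039. The 10 genes with a promoter but no CHR match had -0.15 and -0.081. Only TTTGAA and TTCGAA were searched as CHR elements, and other forms were not. The genes without a match include NEK2, PTTG1, SPC24 and CENPE, which were among those lower with let-7a, and AURKB, which was not. Of the 5 genes with an E-box match, the siMYCN changes were -0.47 for ANLN, -0.15 for PLK1, 0.02 for CCNB1, 0.07 for CENPF and 0.09 for CENPE. These are descriptions of 41 genes in 4 libraries, with no test.

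Further cell cycle genes outside the 48 were read from 10 lists. In the 8 lists that belong to G2 and mitosis, 106 genes were tested, with a median let-7a change of -0.087 and a median siMYCN change of -0.031. With let-7a, limma called 0 of these genes in either direction, as over all tested genes (0.0% each way). Below 0 in both pairs with let-7a were 56 of the 106, against 33.5% of all tested genes. The 2 genes with the largest let-7a change in each list included NCAPG and SMC4 of the condensins (-0.41 and -0.40), KNTC1 and ZWILCH of the checkpoint's RZZ complex (-0.44 and -0.42), PDS5B and SGOL2 of the cohesin group (-0.41 and -0.35), RBL1, the p107 subunit of DREAM (-0.39), and the PLK1 activator BORA (-0.59). In the other direction, they included DSN1 and CENPP, both of the further kinetochore list (0.33 and 0.32), and the kinase WEE1 (0.30). KNTC1 was at 62.0 with let-7a and 90.1 with miRCon in siMYCN cells, and at 86.5 with let-7a and 110.5 with miRCon in siCon cells. MYBL2, the B-MYB subunit of MYB-MuvB, was at 240.2 with let-7a and 276 with miRCon in siMYCN cells, and at 242 with let-7a and 256 with miRCon in siCon cells. CDC16, an APC/C subunit, had the largest let-7a change of the 106 (-0.72) but rests on small values, at 2.52 with let-7a and 6.5 with miRCon in siMYCN cells and at 5.16 with let-7a and 6.86 with miRCon in siCon cells.

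With siMYCN, limma called 4 of the 106, of which 2 fell (1.36% of all tested genes fell) and 2 rose (2.07% of all tested genes rose), counts close to those background shares. CENPP, a subunit of the inner kinetochore, fell to 15.4 in siMYCN/let-7a and 11.5 in siMYCN/miRCon, against 29.2 in siCon/let-7a and 24.3 in siCon/miRCon (-0.95 ± 0.136, adjusted p = 0.0401, limma, n = 4 libraries). NEK9, the kinase upstream of NEK6 and NEK7, fell to 30.5 in siMYCN/let-7a and 25.4 in siMYCN/miRCon, against 49.4 in siCon/let-7a and 46.3 in siCon/miRCon (-0.76 ± 0.111, adjusted p = 0.0418, limma). CENPH, another inner kinetochore subunit, rose to 63.6 in siMYCN/let-7a and 66.6 in siMYCN/miRCon, against 43.9 in siCon/let-7a and 42.2 in siCon/miRCon (0.59 ± 0.097, adjusted p = 0.0480, limma). CDC26, a small APC/C subunit, rose to 79.3 in siMYCN/let-7a and 72.3 in siMYCN/miRCon, against 47.9 in siCon/let-7a and 40.1 in siCon/miRCon (0.78 ± 0.094, adjusted p = 0.0333, limma). The inner kinetochore thus held 1 gene that rose and 1 that fell. With no filter on level or without limma's trend, 0 of 19734 and 0 of 9324 genes were called, so these calls and that of CDKN1A rest on both choices. WEE1, the kinase that restrains CDK1, was at 36.6 in siMYCN/let-7a and 26.1 in siMYCN/miRCon, against 53.7 in siCon/let-7a and 48.8 in siCon/miRCon, a change of -0.71 ± 0.125 that just missed the test (adjusted p = 0.0512, limma).

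Upstream of G2, 25 tested G1/S and replication genes had a median siMYCN change of -0.20, with 21 below 0, against 41.7% of all tested genes. Their median let-7a change was -0.11, with 21 below 0, against 57.7% of all tested genes. Limma called 0 of them with siMYCN (2.07% of all genes higher, 1.36% lower) and 0 with let-7a (0.0% of all genes each way). CDT1, the replication licensing factor, was at 25.2 in siMYCN/let-7a and 48.6 in siMYCN/miRCon, against 56.8 in siCon/let-7a and 54.8 in siCon/miRCon, and CCNE1, cyclin E1, was higher with siMYCN, at 37.8 in siMYCN/let-7a and 34.5 in siMYCN/miRCon, against 24.5 in siCon/let-7a and 22.1 in siCon/miRCon. CDKN1A, the CDK inhibitor p21, rose to 63.1 in siMYCN/let-7a and 31.1 in siMYCN/miRCon, against 10.1 in siCon/let-7a and 9.55 in siCon/miRCon (2.07 ± 0.238, adjusted p = 0.0301, limma, n = 4 libraries). Both its siMYCN libraries were above both siCon libraries.

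**Figure D5:**
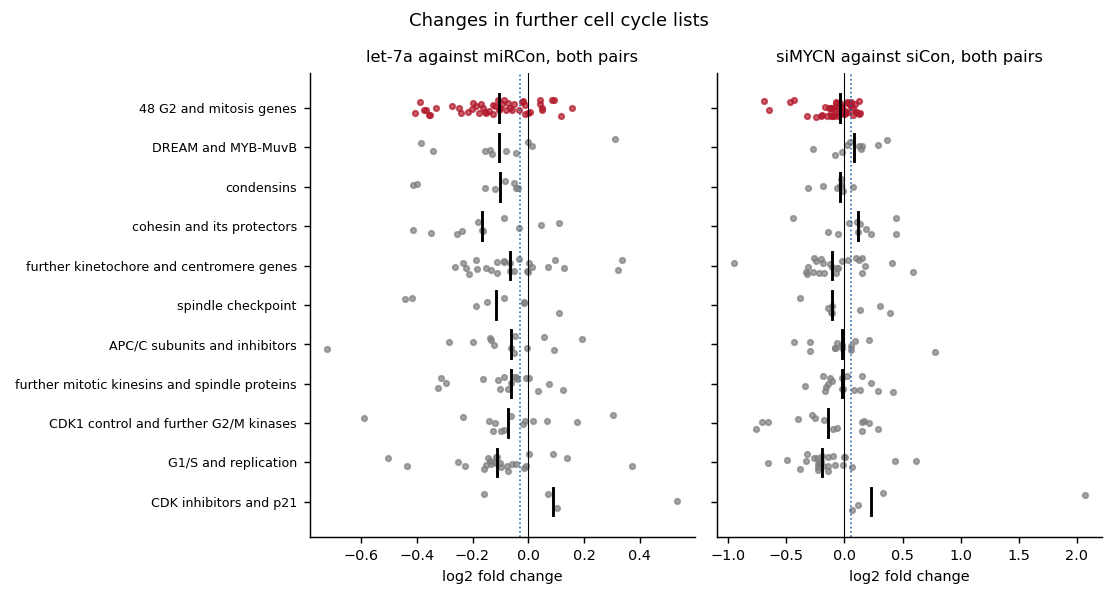
Log2 fold changes over both pairs of the 48 genes (red) and of genes in 10 further cell cycle lists (grey), 1 point per gene, with list medians (bars) and the median of all tested genes (dotted line). List medians with let-7a lie between -0.17 and 0.09 and those with siMYCN between -0.20 and 0.23, and CDKN1A is the far point at 2.07.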

How the data were processed

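PolyA RNA-seq values of 4 libraries, 1 per group, were used as deposited; groups follow the sample labels, which give no replicate numbers. The authors deposited natural log values per gene, and the submitters' processing notes name GRCh38, Salmon 0.3.2 and HISAT 0.1.6 but not their roles; how reads were annotated, filtered or assigned to strands is not given in the sources used here. Natural logs were inferred, since the linear values then sum to between 855811 and 862049 per library, where base 2 gives sums between 143211 and 147588. Of 19837 rows, 92 spike-in and 11 reporter or selection rows were set apart; 28 rows with date-like names stayed in the fit, unnamed. Such values hide the depth in reads, and counting error could not be computed.

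Limma 3.58.1 (R 4.3.3, trend) was fitted to log2(value + 1) for 9324 genes with a mean of at least 5, with additive terms for the siRNA and the mimic. Its error comes from the interaction (1 residual degree of freedom) and 4.30 prior degrees of freedom, and p-values were adjusted by Benjamini-Hochberg over all genes. Single pairs and differences between pairs have no test. The rule of size was a log2 change of at least 0.32 the same way in both pairs, which share no library. The fit was tested on simulated data. As alternatives, the pseudocount was 0.1 or 5, the filter was dropped or set to 20, libraries were rescaled by median ratios, the trend was dropped, sizes of 1.1-fold and 1.5-fold were counted, and each pair was read alone. Python 3.11.15 with pandas 2.3.3, NumPy 2.4.6 and matplotlib 3.10.9 made the tables and plots.

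The 48 genes, the further lists and the tests were chosen with earlier results of these data known. Full values are given for the 6 highest and 6 lowest genes per effect and 12 standard mitotic genes, and for the 2 largest changes per further list and effect, of which the text names some; MYCN, LIN28B, CDKN1A and MYBL2 were added. Coordinates and 3' untranslated regions came from GENCODE release 29, and promoters and the miRNA from RefSeq (GRCh38.p14).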

Additional observations from a re-analysis of the deposited data

Results flagged for a closer look

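AURKB and SPC25 had changes of opposite direction in the 2 pairs of libraries. These differences were not tested, because each rests on 4 single libraries. The let-7a change of AURKB was -0.26 in siMYCN cells and 0.57 in siCon cells, a difference of -0.8251. Read the other way, its siMYCN change was -0.44 with let-7a and 0.39 with miRCon, which is the same difference of -0.8251. The mean level of AURKB over the 4 libraries was 18.3. The siMYCN change of SPC25 was 0.50 with let-7a and -0.38 with miRCon, a difference of 0.8785; its level was 29.8 with let-7a and 29.1 with miRCon in siMYCN cells, and 20.8 with let-7a and 38.3 with miRCon in siCon cells. SPC24, whose product pairs with that of SPC25, was at 75.4 with let-7a and 89.9 with miRCon in siMYCN cells, and at 63.1 with let-7a and 89.7 with miRCon in siCon cells.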

How the results depend on the processing

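No median over the 48 genes changed sign under any alternative; single genes near 0 did after rescaling, 5 with let-7a and 9 with siMYCN. No paired analysis was possible because the labels give no replicate numbers and each group is 1 library, so no library could be left out within a group either. Of the alternatives for single genes, 562 kept their side of the threshold and 6 moved past it: HMMR and ANLN at a mean of at least 20 and after rescaling, and CDC25B and AURKA after rescaling. The siMYCN calls among the 48 genes were thus 2 lower at a mean of at least 20 and 4 lower after rescaling, against 0 as reported. In the same settings limma called 196 of 5672 and 408 of 9324 tested genes lower. The median siMYCN change of the 48 genes was -0.10 (-0.1028) after rescaling. The 4 genes that met the rule of size with siMYCN became 7 at 1.1-fold and 0 at 1.5-fold, and the 1 gene lower with let-7a became 2 with a pseudocount of 0.1, 10 at 1.1-fold, and 0 with a pseudocount of 5, after rescaling or at 1.5-fold. Over all genes, limma's 193 higher and 127 lower siMYCN calls became 310 and 196 at a mean of at least 20, 343 and 408 after rescaling, and 0 and 0 with no filter or without a trend, where 2457 and 2221 genes still had an unadjusted p under 0.05. The siMYCN sizes of 1001 higher and 540 lower became 511 and 286 at a mean of at least 20, 2348 and 1349 at 1.1-fold, and 266 and 150 at 1.5-fold, with 870 lower under no filter. The let-7a sizes of 137 higher and 189 lower became 68 and 95 with a pseudocount of 5, 387 and 409 with no filter, 28 and 65 at a mean of at least 20, 617 and 1003 at 1.1-fold, and 19 and 24 at 1.5-fold. Limma called 0 genes with let-7a under every alternative, where between 466 and 1161 genes had an unadjusted p under 0.05. With a changed filter the rule of size is counted over a smaller or larger set of genes by construction. The cause of the other shifts, those of the limma calls among them, was not tested. The unknown depth limits what can be said of CDC25C and other low genes.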
